A study of Homo sapiens with 28 samples.

Results

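The BH3-only and pore-forming members of the BCL2 family, which promote mitochondrial cell death, were examined in 4 human multiple myeloma cell lines treated with arsenic. Of the 10 genes named (PMAIP1, BMF, BCL2L11, BBC3, BAD, BID, BIK, HRK, BAX and BAK1), 9 had at least 1 probe set whose annotation gives that gene symbol alone. These 9 genes had 25 such probe sets out of 41097 on the array. The probe set annotated to BBC3 carries several symbols, so BBC3 is not analysed here. All 9 genes were among the 15437 genes tested, and 24 of their 25 probe sets passed the same filter on dim signals.

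RNA was measured on 28 arrays of the lines U266, MM.1s, KMS11 and 8226/S, which derive from plasma cells that have become malignant. The treated arrays came from cells given arsenic trioxide (ATO), an inorganic arsenic compound, at 2 µM for 6, 24 or 48 h, or darinaparsin (DAR), an organic arsenical that carries dimethylated arsenic on glutathione, for 6 or 24 h. DAR was given at 4 µM to U266, at 3 µM to MM.1s and KMS11, and at 2 µM to 8226/S, so the doses of the compounds match in 8226/S alone. Each line had 2 untreated arrays at 0 h, numbered control 1 and control 2, and 1 array for each of the 5 treatments. ATO was set against control 2 and DAR against control 1 of the same line. Time in culture was therefore not separated from treatment. Separate cultures are not stated for the arrays, so p-values measure the spread between these arrays, which may be technical. Those of treatments rest on how far the changes differ between the 4 lines, as 1 spread per gene pooled over the 5 treatments. This spread has 15 residual degrees of freedom, and the SE of a gene is the same in each treatment, whatever the spread there. For PMAIP1 the SD of the 4 line changes was 1.07 after 6 h of ATO and 0.51 after 6 h of DAR. The p-values of untreated levels rest on the 2 controls of each line (3 residual degrees of freedom). Those of single lines rest on a spread pooled over all 28 arrays (12 residual degrees of freedom), not on the arrays of that line alone. In bulk RNA, fewer expressing cells and less RNA per cell cannot be told apart.

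BH3-only proteins are the sensors of the mitochondrial death pathway. They carry a short BH3 helix that fits a groove on the survival proteins BCL2, BCL-XL (gene BCL2L1) and MCL1. BIM (BCL2L11), BID and PUMA (BBC3) can also bind the effectors BAX and BAK (BAK1) directly, whereas NOXA (PMAIP1), BMF, BAD, HRK and BIK act mainly by occupying survival proteins, NOXA being known for binding MCL1. Freed BAX and BAK form pores in the outer mitochondrial membrane, and cytochrome c then escapes and activates caspases. Myeloma cells are known to lean on MCL1 for survival.

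The windows just before the annotated starts of 4 of the genes are shown because these genes had a called probe set and their window holds at least 1 of the motifs searched. BID was also called, and its 5 listed windows hold none of the motifs. They are the 250 bases before the start, 5′ to 3′ on the gene's strand, from RefSeq on GRCh38.p14, with capitals marking a match on either strand to 1 short motif. In PMAIP1 (chr18:59899746-59899995, plus strand) the capitals mark CGTCA, which is TGACG on the other strand and begins 55 bases before the start. In BMF (chr15:40108880-40109129, minus strand, 1 of 2 starts listed) they mark TGACG, 57 bases before the start. TGACG is the core of the cyclic AMP response element that ATF and CREB factors bind. In BCL2L11 (chr2:111120664-111120913, plus strand) they mark the forkhead motif GTAAACA, 223 bases before the start. In HRK (chr12:116881442-116881691, minus strand) they mark a match to TGATGNAA, the composite of CCAAT/enhancer-binding protein and ATF sites, 75 bases before the start. The HRK window also holds TGACG, read as CGTCA, which is left in lower case.
PMAIP1: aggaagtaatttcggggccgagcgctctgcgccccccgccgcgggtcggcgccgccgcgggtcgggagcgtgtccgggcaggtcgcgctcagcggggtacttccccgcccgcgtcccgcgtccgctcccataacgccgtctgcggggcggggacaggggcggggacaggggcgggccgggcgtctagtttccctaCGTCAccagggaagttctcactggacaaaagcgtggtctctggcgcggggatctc
BMF: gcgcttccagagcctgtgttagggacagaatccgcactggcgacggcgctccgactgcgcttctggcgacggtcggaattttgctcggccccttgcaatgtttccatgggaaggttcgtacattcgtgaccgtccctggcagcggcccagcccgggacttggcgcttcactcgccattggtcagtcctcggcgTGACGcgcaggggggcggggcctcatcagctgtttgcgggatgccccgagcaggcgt
BCL2L11: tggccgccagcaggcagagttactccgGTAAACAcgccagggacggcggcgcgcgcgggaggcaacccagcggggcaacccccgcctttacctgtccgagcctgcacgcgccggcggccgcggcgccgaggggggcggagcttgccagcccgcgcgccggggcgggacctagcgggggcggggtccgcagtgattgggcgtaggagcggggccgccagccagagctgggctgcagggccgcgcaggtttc
HRK: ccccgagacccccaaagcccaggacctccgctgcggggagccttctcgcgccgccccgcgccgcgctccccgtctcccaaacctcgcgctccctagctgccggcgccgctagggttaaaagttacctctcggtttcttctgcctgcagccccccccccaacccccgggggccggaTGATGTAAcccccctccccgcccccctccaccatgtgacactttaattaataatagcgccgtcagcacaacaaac

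Windows of this length were listed for 35116 starts, and for 8 of the 9 genes at 1 or more starts. The shares below count windows, whereas a gene counts if any of its windows matches. BMF and BAD have 2 listed windows each and BID has 5. TGACG was present in 21.2% of all windows and in those of 5 of the 8 genes (PMAIP1, BMF, BAD, HRK and BAX). The complete element TGACGTCA, which contains TGACG, was present in 1.65% of all windows and in none of the 8 genes. The AP-1 motif TGANTCA was present in 6.57% of all windows and in none of the 8 genes. TGATGNAA was present in 3.14% of all windows and, among the 8 genes, in HRK, and GTAAACA in 2.98% of all windows and in BCL2L11. These matches describe letters in the windows and were not tested as binding sites.

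The arrays form 2 sets by their values, DAR with control 1 and ATO with control 2, and 20 of 20 treated arrays correlated better with the control of their own set than with the other control of the line. Array medians were 76.3 to 109 with DAR and 65.5 to 88.4 in control 1, and 111 to 147 with ATO and 118 to 132 in control 2. The ratio of 3′ to 5′ ACTB probe sets, which rises as RNA is shortened, was 1.28 to 1.52 after 6 h of DAR, 1.69 to 2.19 after 24 h of DAR and 1.37 to 1.90 in control 1. It was 1.03 to 1.27 with ATO and 1.09 to 1.13 in control 2. Within each line the ACTB ratio was lower after 6 h of DAR than in control 1. The values were 1.52 and 1.90 in U266, 1.40 and 1.74 in MM.1s, 1.28 and 1.71 in KMS11, and 1.32 and 1.37 in 8226/S. The part of this ratio in the DAR changes was not tested. The plasma cell markers SDC1, TNFRSF17, PRDM1, IRF4, XBP1 and POU2AF1 were above the array's median on 28 of 28 arrays, MZB1 on 26 and CD38 on 17. Of 14 markers of other cell types, CD14 was above the median on 0 arrays, KRT19 on 1, CD3D on 2 and LYZ on 3. CDH1, PAX5 and CSF1R were above it on 9 to 11 arrays, and EPCAM, CD3E, MS4A1, CD2, COL1A2, DCN and COL1A1 on 14 to 22. The summed level of the 3 stromal markers was 941 to 1447 with ATO and 866 to 1393 in control 2, against 136 to 471 with DAR and 177 to 325 in control 1. Their part in the results was not tested.

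Untreated lines already differed in the RNA levels of some of these genes. The largest gap was in BIK, a BH3-only protein of the endoplasmic reticulum. Its intensity was 13.5 and 7.30 in MM.1s (control 1 and control 2), 527 and 415 in KMS11, 712 and 983 in U266, and 1474 and 983 in 8226/S. MM.1s thus lay far below the other lines on both controls, and U266 and 8226/S met at 983 in control 2. BIK differed between lines with an adjusted p of 2.85e-06 in limma's F test on the 8 controls with a term for the control number. The test called 51.7% of all 15437 genes.

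In the same test 6 of the 9 genes differed between lines (BIK, BID, BMF, BCL2L11, PMAIP1 and BAX), against that background of 51.7%. Without the term for the control number, whose set difference then counts as spread, 1 of the 9 passed. PMAIP1 was lowest in MM.1s, at 1066 and 855 in controls 1 and 2, against 2829 and 1655 in KMS11, 2647 and 2938 in 8226/S, and 4775 and 1862 in U266. MM.1s was below each of the other lines (log2 differences of -1.16 for MM.1s minus KMS11, -1.52 for MM.1s minus 8226/S and 1.61 for U266 minus MM.1s, adjusted p = 0.00176 to 0.0161), while KMS11, 8226/S and U266 did not pass a test against each other. BMF ran the other way in MM.1s, where it was highest, with 714 and 1396 in controls 1 and 2, against 171 and 454 in 8226/S, the lowest line. The log2 difference of MM.1s minus 8226/S was 1.73 ± 0.24 (SE, adjusted p = 0.000381).

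Among the direct activators, BID was highest in KMS11, with 4429 and 2301 in controls 1 and 2, and lowest in 8226/S, with 1415 and 1016. KMS11 was above each of the other lines (log2 differences of 1.39 for KMS11 minus 8226/S, -0.69 for MM.1s minus KMS11 and -1.08 for U266 minus KMS11, adjusted p = 0.000433 to 0.0268). BCL2L11 was lowest in KMS11, with 2343 and 1201, and KMS11 was below each of the other lines (log2 differences of -0.68 for KMS11 minus 8226/S, 1.00 for U266 minus KMS11 and 1.07 for MM.1s minus KMS11, adjusted p = 0.00116 to 0.0126). MM.1s, at 4881 and 2606, U266, at 4719 and 2441, and 8226/S, at 3214 and 2294, did not pass a test against each other (adjusted p = 0.116 to 0.805). This order is that of the brightest probe set, and 8226/S was the highest line in 4 of the 7 BCL2L11 probe sets. Of the effectors, BAX was higher in KMS11 and in MM.1s than in 8226/S by 0.76 and 0.72 on the log2 scale (adjusted p = 0.0195 and 0.0243). BAK1, BAD and HRK did not pass the F test (adjusted p = 0.225, 0.273 and 0.639). HRK, a BH3-only gene best known in neurons, was dim in every line, at 77.4 to 151 in its brightest probe set. Its probe set 206864_s_at read 79.8 to 218 in control 1 and 20.7 to 112 in control 2.

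**Figure D1:**
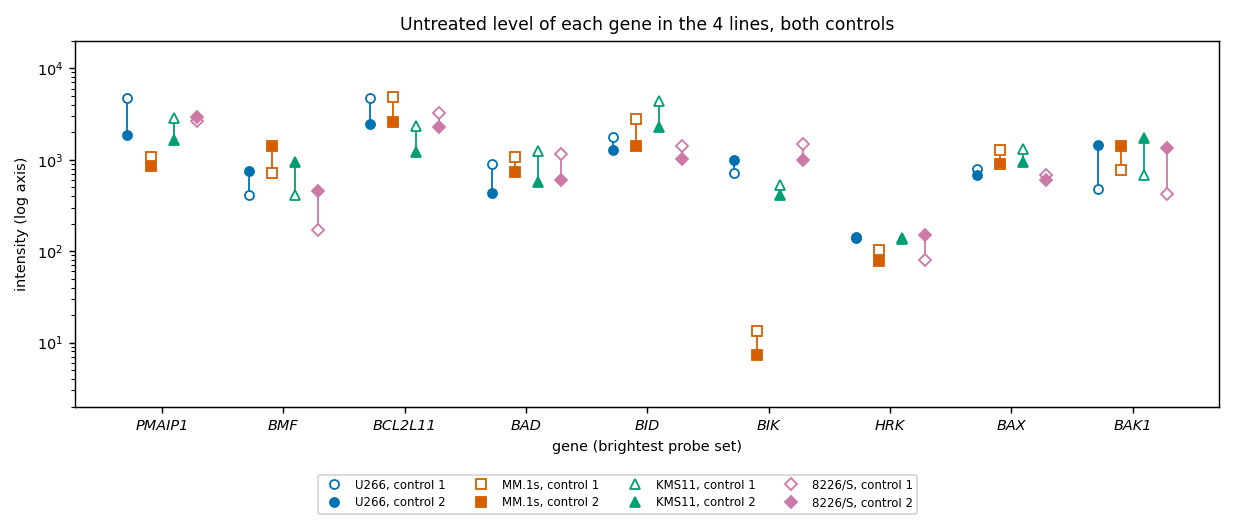
Untreated intensity (log axis) of the brightest probe set of each gene in the 4 lines, with control 1 as open and control 2 as filled symbols joined by a line. BIK in MM.1s lies at 7.30 and 13.5, below every other point, and control 2 lies above control 1 for BMF and BAK1 in every line.

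The numbered controls of a line were not interchangeable for these genes. BMF and BAK1 were higher in control 2 than in control 1 in 4 of 4 lines, by 0.83 to 1.28 and by 0.83 to 1.60 on the log2 scale. The brightest probe sets of BCL2L11, BAD, BID and BAX were lower in control 2 in 4 of 4 lines. For the brightest PMAIP1 probe set, control 2 minus control 1 was -1.34 in U266, -0.76 in KMS11, -0.31 in MM.1s and 0.15 in 8226/S. The probe sets of 1 gene did not always go the same way: for BCL2L11, 1553088_a_at (0.87 to 1.54), 1555372_at (0.49 to 0.84), 208536_s_at (0.12 to 0.55) and 222343_at (0.04 to 0.23) were higher in control 2 in 4 of 4 lines. For BAD, 1861_at was higher in control 2 in MM.1s (0.06) and lower in the other lines. Across all 15437 genes control 2 exceeded control 1 by a median of 0.21. Each treatment is compared below within its own set, as set out above.

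After 6 h of DAR, PMAIP1 was the 1 gene of the 9 that was called, and it was higher in all 4 lines. Its intensity was 8588 in treated U266 cells, against 4775 in control 1. In MM.1s it was 3909 after DAR and 1066 in control 1. In KMS11 it was 8943 after DAR and 2829 in control 1, and in 8226/S it was 10436 after DAR and 2647 in control 1. The treated value of MM.1s, the line with the lowest baseline, lay below the control of U266, so the groups overlap between lines. Within a line 1 treated array meets 1 control 1 array, so overlap there cannot be judged. In U266 the log2 change was 0.84, while control 2 minus control 1, from different array sets, was -1.34. The mean log2 change of PMAIP1 was 1.58 ± 0.31 (SE of the fit, n = 4 lines, adjusted p = 0.00121), a 2.98-fold rise.

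The second PMAIP1 probe set gave a log2 change of 1.71 ± 0.32 (adjusted p = 0.000704 over all 36740 probe sets). Its intensity was 5612 after DAR and 2758 in control 1 in U266, 2495 and 521 in MM.1s, 6891 and 1770.3 in KMS11, and 4208 and 1282 in 8226/S. All 4 lines were again higher. The call of PMAIP1 held with each line left out in turn, with adjusted p between 0.00129 and 0.0217, the highest without 8226/S. Over all genes 13.2% were called after 6 h of DAR, 6.85% as higher. The call needs the comparison within lines: without a term for line the adjusted p was 0.559.

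At 24 h of DAR the mean PMAIP1 change was 0.60 ± 0.31 and did not pass (adjusted p = 0.371). The intensities were 5308 after 24 h of DAR and 4775 in control 1 in U266, 1736 and 1066 in MM.1s, 3453 and 2829 in KMS11, and 6509.6 and 2647 in 8226/S. Every line was still above its control, 8226/S the most, with a log2 change of 1.29. The direct contrast of 24 h minus 6 h was -0.97 ± 0.31 (adjusted p = 0.0532), just short of the threshold, which 7.67% of all genes passed. In the second probe set the same contrast was -1.05 ± 0.32 and passed (adjusted p = 0.0442). That call was lost when U266, MM.1s or KMS11 was left out (adjusted p = 0.0539, 0.255 and 0.183), and it was kept in 5 of 13 alternatives. In each line the ACTB ratio was higher after 24 h than after 6 h of DAR, and its part in these contrasts was not tested.

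**Figure D2:**
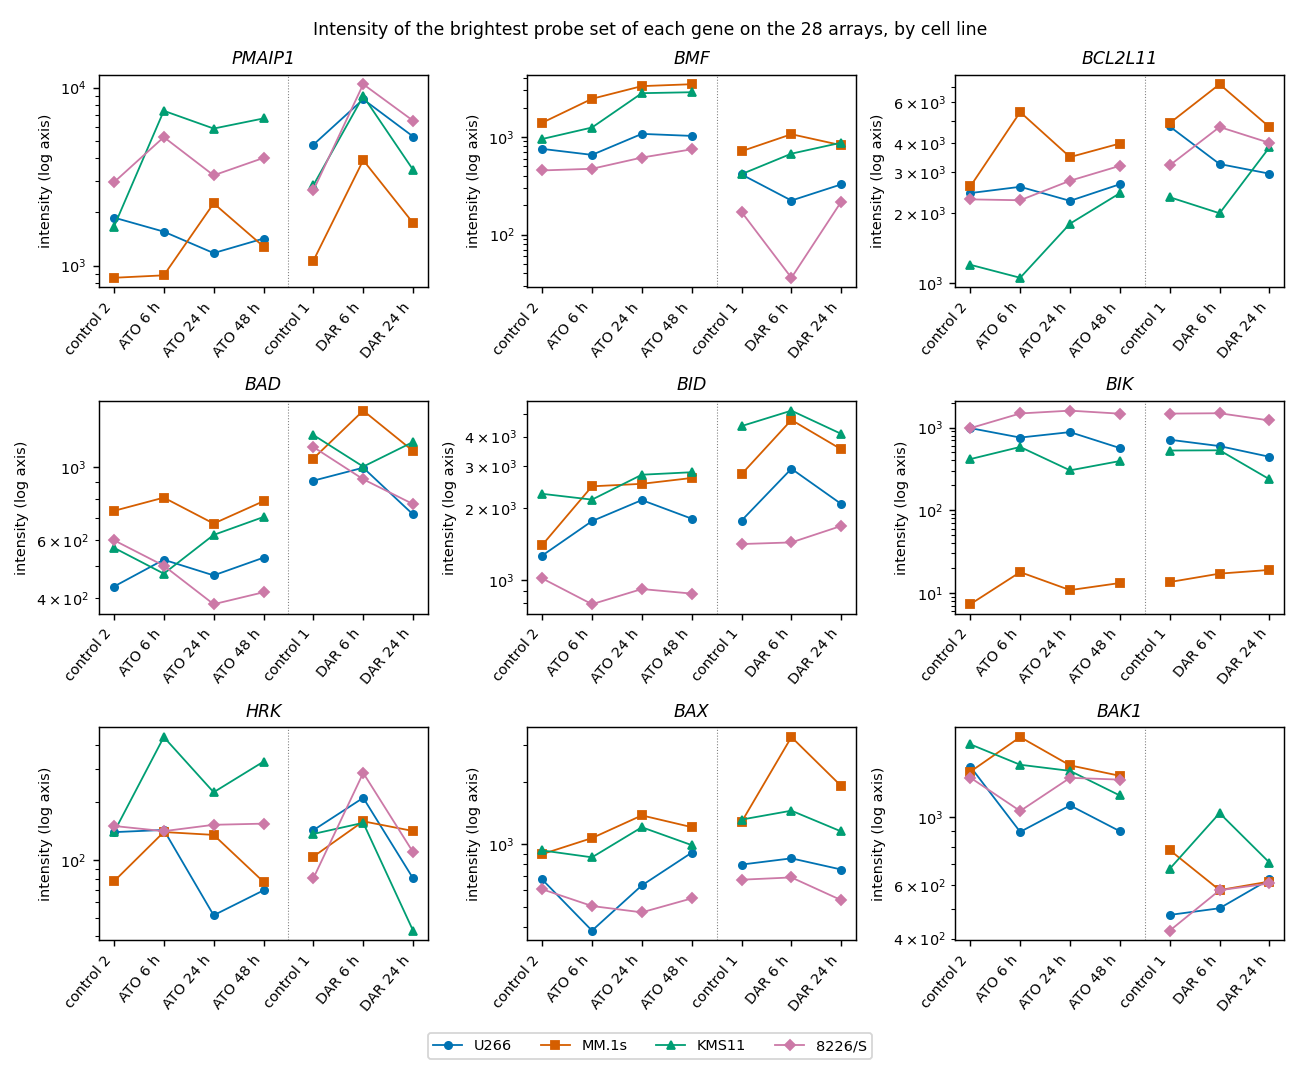
Intensity (log axis) of the brightest probe set of each of the 9 genes on the 28 arrays, with ATO and control 2 left of the dotted line and DAR and control 1 right of it, 1 symbol and line per cell line. PMAIP1 peaks after 6 h of DAR in all 4 lines, and BMF is higher after 24 and 48 h of ATO than in control 2 in all 4 lines.

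With ATO the PMAIP1 response was uneven across the lines. KMS11 had 1655 in control 2 and 7402, 5884 and 6706 after 6, 24 and 48 h. MM.1s had 855 in control 2 and 883, 2239 and 1281 after 6, 24 and 48 h, and 8226/S had 2938, then 5268, 3214 and 4026. U266 had 1862 in control 2 and lower values of 1553, 1177 and 1420.0 after treatment. The log2 changes thus spanned -0.65 to 2.14 over lines and times, with KMS11 at 1.81 or more at each time and U266 below 0 at each time. The mean changes were 0.69 at 6 h, 0.66 at 24 h and 0.66 at 48 h (SE 0.31 each), and none passed (adjusted p = 0.211, 0.249 and 0.183).

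BMF was the 1 gene of the 9 called after 48 h of ATO. BMF senses loss of attachment and is held on motor complexes by the dynein light chain DYNLL2 until released. In MM.1s its intensity was 1396 in control 2 and 2457, 3312 and 3464 after 6, 24 and 48 h. KMS11 had 952 in control 2 and 1248, 2804 and 2868 after 6, 24 and 48 h. U266 had 755, then 655, 1074 and 1025, and 8226/S had 454, then 472, 615 and 747. Each line was above its own control at 24 and 48 h, while the 48 h value of 8226/S lay below 3 of the 4 controls.

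The mean log2 change of BMF was 0.26 at 6 h, 0.92 at 24 h and 0.99 at 48 h (SE 0.28 each). It passed at 48 h (adjusted p = 0.0229) and not at 24 h (adjusted p = 0.0591) or 6 h (adjusted p = 0.713). Over all genes 11.7% were called at 48 h, 6.35% as higher. The log2 changes were 1.56 in KMS11 and 1.29 in MM.1s, above 0.68 in 8226/S and 0.43 in U266. The summed level of the 8 plasma cell markers was 26339 to 51621 after 48 h of ATO and 44496 to 101757 in control 2, and its part in the result was not tested. The call was lost without MM.1s (0.89, adjusted p = 0.123) or without KMS11 (0.80, adjusted p = 0.174). BMF has a single probe set, so no second reading of it exists among those analysed.

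DAR did not move BMF in 1 direction. After 6 h the intensity was 223 with DAR and 413 in control 1 in U266, and 36.2 and 171 in 8226/S. It was 1066 with DAR and 714 in control 1 in MM.1s, and 674 and 416 in KMS11. MM.1s (log2 change 0.56) and KMS11 (0.66) were higher and U266 (-0.81) and 8226/S lower. The value of 36.2 in 8226/S lay below that array's median of 109, the only 1 of 28 arrays where BMF did, so the size of its log2 change (-1.61) is not firm. The mean was -0.30 ± 0.28 (adjusted p = 0.559) at 6 h and 0.30 ± 0.28 (adjusted p = 0.668) at 24 h.

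The other sensitizers were not called at the gene level in any treatment. BAD, which phosphorylation and 14-3-3 proteins keep inactive in growing cells, had mean log2 changes between -0.22 and 0.04 in its brightest probe set. Means of 1861_at lay between 0.06 and 0.26. Those of 232660_at were 0.99 and 1.03 after 24 and 48 h of ATO and did not pass (adjusted p = 0.177 and 0.0988 over all probe sets). That probe set was dim, above the array's median on 11 of 28 arrays. BIK had means between -0.45 and 0.26, the lowest after 24 h of DAR (adjusted p = 0.341), where KMS11 had 237 and its control 1 had 527. In MM.1s BIK stayed between 7.30 and 18.96 on all 7 arrays. HRK had its highest mean after 6 h of DAR, at 0.67 ± 0.31 (adjusted p = 0.182), with 4 of 4 lines higher.

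The probe sets of HRK did not give 1 answer. The brightest one read 285 in DAR-treated 8226/S cells at 6 h against 80.3 in control 1, and 211 against 143 in U266. A second probe set passed after 6 h of DAR (log2 change 1.42 ± 0.46, adjusted p = 0.0426), with 710 after DAR and 164 in control 1 in U266, and 737 and 218 in 8226/S. It read 335 and 151 in KMS11 and 200.3 and 79.8 in MM.1s, so all 4 lines were higher. The call was lost on leaving out any 1 line (adjusted p = 0.147 without U266, 0.108 without MM.1s, 0.0519 without KMS11 and 0.0965 without 8226/S). It was also lost with quantile normalization, median centring, an offset of 16, no filter or no variance trend (adjusted p = 0.0537 to 0.0771), and kept in 2 of 12 alternatives in all.

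After 6 h of ATO, KMS11 was higher than control 2 in 4 of the 5 HRK probe sets. It read 439 after ATO and 140 in control 2 in the brightest, 296 and 20.8 in 206864_s_at, 819 and 32.4 in 229552_at, and 299.5 and 17.5 in 206865_at, but 37.3 and 92.1 in 206863_x_at. The control values of these last 4 lay below that array's median of 118, so the sizes of these changes are not firm. In 229552_at, 8226/S also read 157 after ATO and 23.1 in control 2. The mean change of 229552_at was 1.45 ± 0.43 (adjusted p = 0.0579), and this probe set was above the array's median on 7 of 28 arrays, all of KMS11 or 8226/S, so it passed the filter through them. HRK was above the array's median on 21 of 28 arrays with the brightest probe set and on 3 to 16 with the others.

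BCL2L11 encodes BIM, whose transcript is spliced into several forms. Its brightest probe set showed no common direction after 6 h of DAR. The values were 3254 with DAR and 4719 in control 1 in U266, 7171 and 4881 in MM.1s, 1999 and 2343 in KMS11, and 4696 and 3214 in 8226/S. MM.1s and 8226/S were higher, U266 and KMS11 lower, and the mean change was 0.08 ± 0.23 (adjusted p = 0.867).

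Of the other 6 BCL2L11 probe sets, 4 rose after 6 h of DAR. The brightest of the 4 (1553096_s_at) had 2122 with DAR and 1262 in control 1 in U266, 2957 and 1198 in MM.1s, 860.1 and 740.4 in KMS11, and 2745 and 1698 in 8226/S. All 4 lines were higher, KMS11 the least, and the log2 change was 0.73 ± 0.17 (adjusted p = 0.0063). Probe set 208536_s_at changed by 1.05 ± 0.25 (adjusted p = 0.00662) and 222343_at by 0.82 ± 0.21 (adjusted p = 0.00933), each with 4 of 4 lines higher. Probe set 1555372_at changed by 0.70 ± 0.21 (adjusted p = 0.0308) with 3 of 4 lines higher. The remaining pair changed by 0.47 and 0.36 and did not pass (adjusted p = 0.235 and 0.286). In each line the ACTB ratio was lower after 6 h of DAR than in control 1, and its part in these calls was not tested.

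The call of 1553096_s_at held with each line left out. Without MM.1s the other calls were lost (adjusted p = 0.0789 for 208536_s_at, 0.107 for 222343_at and 0.25 for 1555372_at). Without 8226/S 2 of them were lost (adjusted p = 0.095 for 222343_at and 0.277 for 1555372_at), and 1555372_at was also lost without KMS11 (adjusted p = 0.0527). With the 2 controls of each line pooled and no term for array set (pooled controls), 1555372_at was at 0.40 (adjusted p = 0.278). The difference between the sets then enters the changes. With quantile normalization or median centring 1555372_at missed the threshold (adjusted p = 0.0545 and 0.0565). Over the 20 changes of treated minus control, the brightest probe set correlated with the others at r = 0.26 to 0.74, a description over changes that share lines and controls. Which transcript forms each probe set reads was not tested.

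By 24 h of DAR a pair of the raised BCL2L11 probe sets had fallen again, in a contrast that 7.39% of all probe sets passed. The contrast of 24 h minus 6 h was -0.73 ± 0.17 for 1553096_s_at (adjusted p = 0.00979) and -0.88 ± 0.25 for 208536_s_at (adjusted p = 0.0324). Probe set 222343_at was at -0.62 and did not pass (adjusted p = 0.0662). Probe set 1555372_at was at 0.05 (adjusted p = 0.938) and still 0.75 above control 1 at 24 h (adjusted p = 0.0901). The first call was lost without U266 or 8226/S (adjusted p = 0.107 and 0.0591), and the second without U266, MM.1s or 8226/S (adjusted p = 0.154, 0.115 and 0.138) or with pooled controls (adjusted p = 0.0901). At 24 h of DAR the ACTB ratio was 1.69 to 2.19, against 1.28 to 1.52 at 6 h, and its part in this contrast was not tested. With ATO no BCL2L11 probe set was called at any time. The brightest probe set had its highest mean at 48 h, at 0.55 ± 0.23 (adjusted p = 0.121), with 4 of 4 lines higher and KMS11 at 2439 after ATO and 1201 in control 2.

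BID, which caspase-8 cuts to link death receptors to mitochondria, was higher with both compounds in MM.1s and U266. In MM.1s its brightest probe set had 1401 in control 2 and 2474, 2534 and 2681 after 6, 24 and 48 h of ATO. U266 had 1266 in control 2 and 1767, 2166 and 1809 after ATO, whereas 8226/S had 1016, then 791, 916 and 877. After 6 h of DAR it was 4699 with DAR and 2781 in control 1 in MM.1s, 2932 and 1776 in U266, 5142 and 4429 in KMS11, and 1438 and 1415 in 8226/S. The means were 0.21 to 0.43 in the 4 comparisons of ATO and of DAR at 6 h (SE 0.16 each) and none passed (adjusted p = 0.0764 to 0.534).

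A second BID probe set (204493_at) rose after 6 h of ATO (0.53 ± 0.14, adjusted p = 0.0318), after 24 h of ATO (0.51 ± 0.14, adjusted p = 0.046) and after 6 h of DAR (0.72 ± 0.14, adjusted p = 0.00117), with 4 of 4 lines higher each time. After 6 h of DAR it read 1286 with DAR and 688 in control 1 in U266, 2779.98 and 1354 in MM.1s, 2110.2 and 1629 in KMS11, and 727 and 466 in 8226/S. It then fell by 0.52 ± 0.14 between 6 and 24 h of DAR (adjusted p = 0.0244). The DAR call held with each line left out. The ATO call at 6 h was lost without U266, MM.1s or KMS11 (adjusted p = 0.0645, 0.31 and 0.188). Leaving out any 1 line ended the ATO call at 24 h (adjusted p = 0.0746 to 0.311) and the contrast of DAR times (adjusted p = 0.0571 to 0.176). In that contrast the brightest probe set was at -0.25 (adjusted p = 0.398) and the remaining one, 227143_s_at, at 0.03 (adjusted p = 0.932). Probe set 227143_s_at had 0.43 after 6 h of ATO and 0.36 after 6 h of DAR and did not pass (adjusted p = 0.0638 and 0.0759). With pooled controls the changes of 204493_at after 6 and 24 h of ATO were 0.19 and 0.17 and did not pass (adjusted p = 0.552 and 0.59). Over all alternatives 204493_at kept its call in 6 of 13 for ATO at 6 h, 4 of 13 for ATO at 24 h, 12 of 13 for DAR at 6 h and 6 of 13 for DAR 24 h minus 6 h.

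The effectors were not called in any treatment. BAX, the effector that waits in the cytosol, had 3271 after 6 h of DAR and 1278 in control 1 in MM.1s, a log2 change of 1.34. In the other lines it read 854 after DAR and 798 in control 1 in U266, 1448 and 1312 in KMS11, and 692 and 675 in 8226/S. MM.1s alone stood apart, and the second BAX probe set gave 3464 with DAR and 1462 in control 1 there. The mean change was 0.40 ± 0.19 (adjusted p = 0.195). BAK1, the effector resident on mitochondria, had means between -0.32 after 48 h of ATO (0 of 4 lines higher, adjusted p = 0.245) and 0.16 after 6 h of DAR (adjusted p = 0.608).

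**Figure D3:**
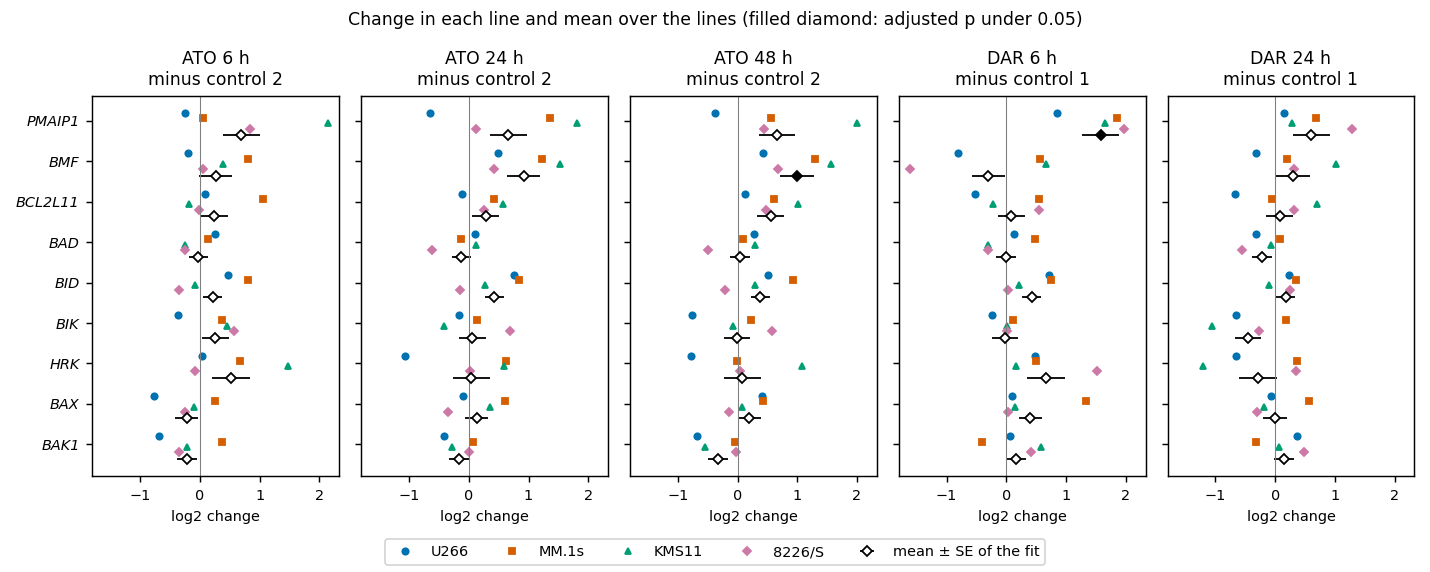
Log2 change of each gene in each line (coloured symbols) with the mean ± SE of the fit (diamond, filled where the adjusted p was under 0.05), treated minus the control of the same line and set, for the 5 treatments. The filled diamonds are BMF after 48 h of ATO (0.99) and PMAIP1 after 6 h of DAR (1.58).

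Counted over the 9 genes, limma called 0 after 6 h of ATO, 0 after 24 h, 1 after 48 h, 1 after 6 h of DAR and 0 after 24 h of DAR. The shares of all genes called were 6.41%, 5%, 11.7%, 13.2% and 0.622%. At an unadjusted p under 0.05 the counts of the 9 were 1, 3, 4, 3 and 0, and the shares of all genes 19.1%, 18.1%, 24.5%, 25.7% and 14.8%. The median change of the 9 was 0.24, 0.13, 0.19, 0.16 and 0.07, beside medians over all tested genes of 0.00 to 0.06. These shares of called genes were not above the background.

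Counted over the 24 probe sets, 8 were called as higher after 6 h of DAR, from PMAIP1, BCL2L11, BID and HRK, and 12.3% of all 36740 probe sets were called (6.03% as higher). After ATO, 1 of 24 was called at 6 h, 1 at 24 h and 1 at 48 h, where 4.1%, 3.34% and 8.42% of all probe sets were called. After 24 h of DAR 0 of 24 were called by limma (0.953% of all), and 4 of 24 had an unadjusted p under 0.05, as did 14.5% of all probe sets. Probe sets of a gene share its transcript and are not independent.

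**Figure D4:**
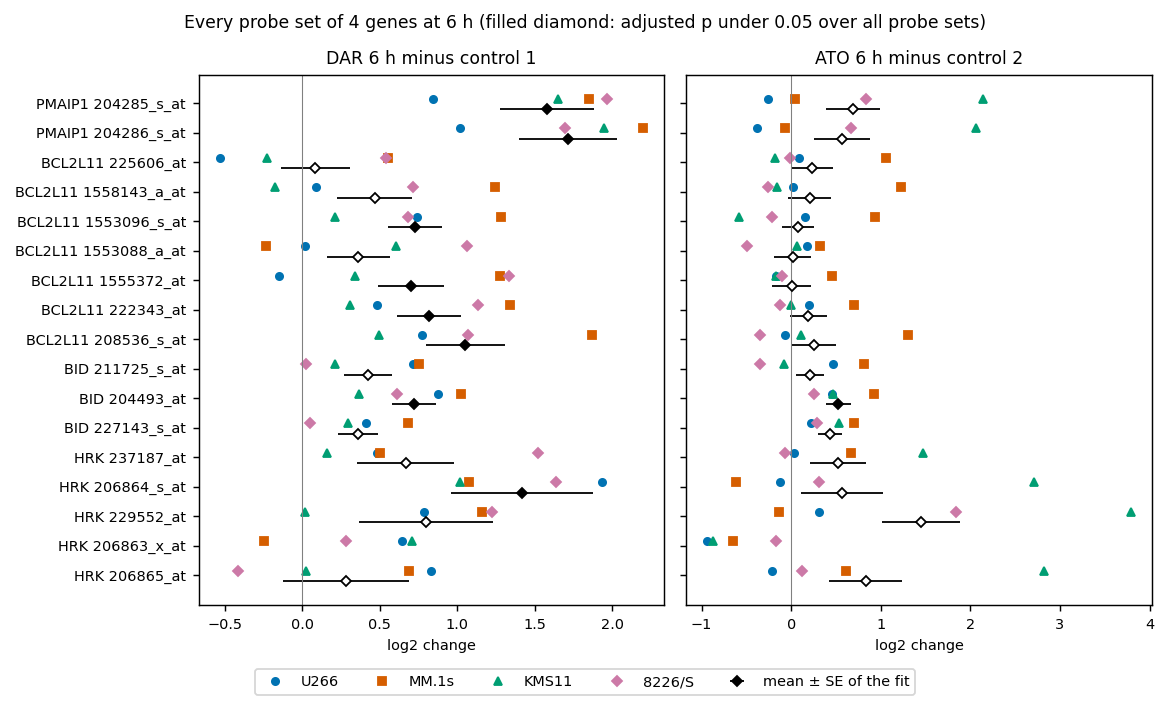
Log2 change after 6 h of DAR (left) and 6 h of ATO (right) for every probe set of PMAIP1, BCL2L11, BID and HRK, by line, with the mean ± SE of the fit (filled where the adjusted p over all probe sets was under 0.05). In the DAR panel 8 diamonds are filled, 4 of them BCL2L11 probe sets, and in the ATO panel 1 is filled, for BID; 206863_x_at of HRK did not pass the filter and has no diamond.

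Between times of ATO no gene of the 9 was called. The contrast of 24 h minus 6 h was called for 0.46% of all genes, and that of 48 h minus 24 h for 0% (0 of 15437). At an unadjusted p under 0.05 the counts of the 9 were 1 and 0, where 10.8% and 6.37% of all genes were, the 1 being BMF at 24 h minus 6 h (0.66 ± 0.28, adjusted p = 0.378). For DAR 24 h minus 6 h 0 of 9 were called and 4 had an unadjusted p under 0.05, as did 21.7% of all genes. PMAIP1 (-0.97), HRK (-0.96) and BAX (-0.40) were lower at 24 h and BMF (0.60) higher.

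The DAR change minus the ATO change gave 0 calls among the 9 genes at 6 h and at 24 h, where 2.21% and 0.246% of all genes were called. At an unadjusted p under 0.05 there was 1 gene at 6 h, BAX, and 0 at 24 h, where 15.7% and 10.7% of all genes were. For PMAIP1 at 6 h the difference was 0.89 (95% interval -0.01 to 1.78, adjusted p = 0.327), and at 24 h it was -0.06 (-0.96 to 0.84). For BMF it was -0.56 (-1.38 to 0.26) at 6 h and -0.61 (-1.44 to 0.21) at 24 h, and for BAX at 6 h it was 0.62 (0.05 to 1.19, adjusted p = 0.262). The intervals of PMAIP1 at 6 h and of BMF at 6 h and 24 h leave room for differences of more than 1 log2 unit. The compounds, their doses and the array sets cannot be told apart here.

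At the shared dose of 2 µM in 8226/S, where each condition has 1 array, PMAIP1 changed by 1.97 with DAR and by 0.84 with ATO at 6 h, and by 1.29 and 0.13 at 24 h. BMF changed by -1.61 with DAR, to a value below the array's median, and by 0.05 with ATO at 6 h, and by 0.31 and 0.41 at 24 h. In KMS11, given 3 µM of DAR and 2 µM of ATO, PMAIP1 changed by 1.65 with DAR and by 2.14 with ATO at 6 h. In U266, given 4 µM of DAR and 2 µM of ATO, PMAIP1 changed by 0.84 with DAR and by -0.26 with ATO at 6 h. In MM.1s it changed by 1.85 with 3 µM of DAR and by 0.04 with 2 µM of ATO.

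Averaged over the 5 treatments, no gene of the 9 passed the F test of a difference in response between lines, which 0.0453% of all genes passed. The adjusted p was 0.285 for BID, 0.438 for BMF, 0.468 for PMAIP1 and 0.522 to 0.919 for the rest, and at an unadjusted p under 0.05 there were 4 genes (BID, BMF, PMAIP1 and BAX), where 8.31% of all genes were. The values of a single line take its 5 treated arrays, of both compounds and of several doses and times, as repeats of 1 effect, and these arrays share 2 controls. Taken line by line in this way, PMAIP1 (1.48 ± 0.30, adjusted p = 0.00465) and BMF (1.06 ± 0.27, adjusted p = 0.0209) rose in KMS11, where 7.49% of all genes were called. BID rose in MM.1s (0.71 ± 0.14, adjusted p = 0.00846), where 3.6% were called. In U266, where 1.04% were called, no gene of the 9 passed, and PMAIP1 and BMF were at -0.02 and -0.09. In 8226/S (0.68% called) no gene of the 9 passed, with PMAIP1 at 0.99 ± 0.30 (adjusted p = 0.162). With pooled controls all 3 of these calls were lost (adjusted p = 0.115 for PMAIP1, 0.177 for BMF and 0.397 for BID). The call of BMF in KMS11 was also lost with median centring (0.90, adjusted p = 0.069) and without the variance trend (adjusted p = 0.0586).

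**Figure D5:**
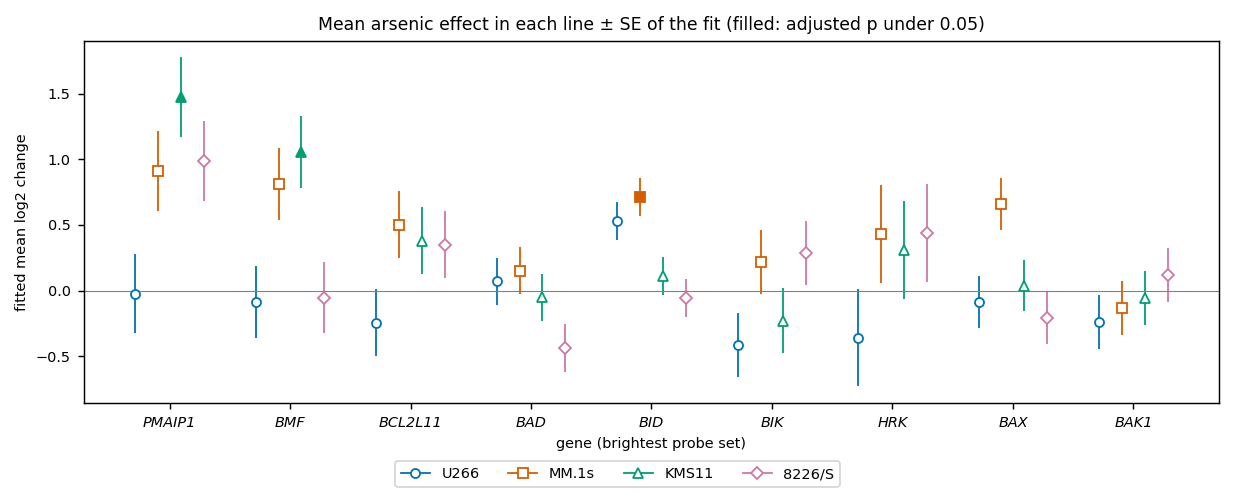
Fitted mean log2 change over the 5 treatments for each gene in each line ± SE of the fit (filled where the adjusted p was under 0.05). The filled points are PMAIP1 (1.48) and BMF (1.06) in KMS11 and BID (0.71) in MM.1s, and the F test of a difference between lines passed for none of the genes.

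Among the 9 genes, the pair whose changes ran most alike over the 20 treated-minus-control differences was PMAIP1 with HRK (Pearson r = 0.78), and the pair most opposed was BAD with BAK1 (r = -0.64). The changes of a line and set share a control array, so these coefficients are descriptions. By the same measure the tested genes most like PMAIP1 were PPP1R2 (r = 0.90), CDKN1A (0.86) and DYNLT2 (0.84). Those most like BMF were NOTCH2 (0.87), LOC105379362 (0.87) and NCAM1 (0.86).

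Of the genes of the survival proteins that these genes oppose, BCL2L1 and BCL2 were called. BCL2L1, which encodes BCL-XL, fell at all 3 times of ATO, by 0.98, 0.83 and 1.33 on the log2 scale (SE 0.21 each, adjusted p = 0.00631, 0.0234 and 0.000283), with 0 of 4 lines higher. In MM.1s it had 7427 in control 2 and 3092, 2860.4 and 1579.8 after 6, 24 and 48 h of ATO. The other lines had 1453 to 2493 after ATO, against 2913 to 3665 in control 2. The 6 h call was lost without KMS11 (adjusted p = 0.0997), the 24 h call without U266, MM.1s or KMS11 (adjusted p = 0.0697, 0.191 and 0.165), and the 48 h call held with each line left out. With pooled controls the falls were 0.33, 0.18 and 0.68 and did not pass (adjusted p = 0.476, 0.705 and 0.106).

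BCL2 rose after 48 h of ATO by 0.63 ± 0.12 (adjusted p = 0.000988, 4 of 4 lines higher) and after 6 h of DAR by 0.41 ± 0.12 (adjusted p = 0.0192, 4 of 4 lines higher). Its DAR call was lost without MM.1s, KMS11 or 8226/S (adjusted p = 0.0974, 0.0817 and 0.0956). MCL1, the survival protein that NOXA binds, had mean changes of -0.09 to 0.24 and passed nowhere (adjusted p = 0.427 to 0.963). In U266 it had 15894 in control 2 and 9956, 11021 and 9115 after 6, 24 and 48 h of ATO, while KMS11 had 11151, then 9551, 11584 and 13462. Counted over the 5 survival genes tested, 0 rose and 1 fell at 6 h and at 24 h of ATO, 1 rose and 1 fell at 48 h, and 1 rose after 6 h of DAR, where 6.41%, 5%, 11.7% and 13.2% of all genes were called.

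Among factors known to act on genes of this family, 3 of 9 tested rose after 6 h of DAR and 0 fell, where 6.85% of all genes rose. The pathway lists were chosen with earlier results of these data known, so their counts are not a test of a list. ATF3, a stress-induced partner of ATF and AP-1 factors, rose by 3.18 ± 0.44 (adjusted p = 3.49e-05), with 7109 after DAR and 969.7 in control 1 in U266, 6379 and 1135 in MM.1s, 5156 and 315 in KMS11, and 5908 and 499 in 8226/S. JUN rose by 2.84 ± 0.31 (adjusted p = 2.73e-06) and DDIT3, which encodes the stress factor CHOP, by 1.21 ± 0.29 (adjusted p = 0.0068). The calls of ATF3 and JUN held with each line left out, and that of DDIT3 was lost without U266 (adjusted p = 0.105) or 8226/S (adjusted p = 0.0758) and with pooled controls (adjusted p = 0.0754). By 24 h of DAR, ATF3 and JUN had fallen, with contrasts to 6 h of -2.64 and -2.34 (adjusted p = 0.000488 and 6.17e-05). JUN was also called for DAR minus ATO at 6 h (2.55), a call lost without U266 (adjusted p = 0.0512). With ATO, ATF3 was high in KMS11, at 10199.8 after 6 h and 640.3 in control 2, and its mean of 1.38 did not pass (adjusted p = 0.0612).

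After 48 h of ATO, DDIT3 rose by 1.26 ± 0.29 (adjusted p = 0.0063) and ATF4, the translation-linked stress factor upstream of it, by 0.65 ± 0.16 (adjusted p = 0.0109). E2F1, a driver of S phase, fell by 1.06 ± 0.21 (adjusted p = 0.00178). These 3 calls were lost without KMS11 (0.95 for DDIT3, 0.41 for ATF4 and -0.96 for E2F1, adjusted p = 0.134, 0.209 and 0.0544). With pooled controls ATF4 was at 0.52 (adjusted p = 0.0503) and E2F1 at -0.61 (adjusted p = 0.0976). MYC fell after 6 h of ATO by 1.31 ± 0.36 (adjusted p = 0.0276), a call lost without U266, KMS11 or 8226/S (adjusted p = 0.0676, 0.263 and 0.059), and without KMS11 its value was -0.69. FOXO1 and FOXO3, which can induce BIM, passed in no treatment.

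Of the other p53 target genes, 3 of 8 rose after 6 h of DAR and 0 fell, where 6.85% of all genes rose. This list too was chosen with earlier results known. CDKN1A, the inhibitor of cyclin-dependent kinases, rose by 2.32 ± 0.38 (adjusted p = 0.000217), GADD45A by 2.22 ± 0.28 (adjusted p = 1.07e-05) and TP53INP1 by 0.60 ± 0.20 (adjusted p = 0.0494). CDKN1A and GADD45A were called lower at 24 h than at 6 h of DAR (-1.72 and -1.70). These calls held with each line left out, and that of CDKN1A was lost with pooled controls (adjusted p = 0.0565). The call of TP53INP1 was lost without MM.1s, KMS11 or 8226/S (adjusted p = 0.0894, 0.375 and 0.127), with a value of 0.32 without KMS11, and it was 0.24 with pooled controls (adjusted p = 0.497). The other 5 did not pass, and the median of the 8 was 0.19, beside 0.02 over all genes. After 6 h of ATO 1 of the 8 rose, GADD45A by 1.11 ± 0.28 (adjusted p = 0.0156), a call lost without MM.1s or KMS11 (adjusted p = 0.179 and 0.261), with a value of 0.68 without KMS11.

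On the death receptor side, 3 of 7 genes rose after 6 h of DAR and 0 fell, where 6.85% of all genes rose. The choice of this list was also made with earlier results known. CFLAR, which restrains caspase-8, rose by 0.76 ± 0.15 (adjusted p = 0.00102), CASP8 by 0.62 ± 0.17 (adjusted p = 0.016) and the adaptor FADD by 0.61 ± 0.15 (adjusted p = 0.00878). The call of CFLAR held with each line left out, that of FADD was lost without U266 (adjusted p = 0.0704), and that of CASP8 without MM.1s or KMS11 (adjusted p = 0.0555 and 0.206), with a value of 0.36 without KMS11. FADD was called lower at 24 h than at 6 h of DAR (-0.71). That call was lost without 8226/S and with pooled controls (adjusted p = 0.0655 and 0.117). After 48 h of ATO, FAS rose by 1.00 ± 0.27 (adjusted p = 0.0152) and CASP8 by 0.56 ± 0.17 (adjusted p = 0.0327). FAS was lost without KMS11 or 8226/S (adjusted p = 0.0897 and 0.0547) and CASP8 without U266, MM.1s or KMS11 (adjusted p = 0.0786, 0.104 and 0.163). After 6 h of ATO, FADD rose by 0.68 ± 0.15 (adjusted p = 0.00798) and CASP10 fell by 0.75 ± 0.18 (adjusted p = 0.0144), calls lost without MM.1s (adjusted p = 0.126 and 0.125), and for CASP10 also without KMS11 (adjusted p = 0.12). With pooled controls FADD after 6 h of ATO was at 0.27 (adjusted p = 0.355), CASP10 at 0.050 (adjusted p = 0.932) and FAS after 48 h of ATO at 0.69 (adjusted p = 0.0899), while FADD after 6 h of DAR was at 1.01.

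Downstream of the mitochondria, 1 of 9 genes of the apoptosome, caspases and their inhibitors rose after 6 h of DAR (6.85% of all genes), CASP9 by 0.59 ± 0.19 (adjusted p = 0.0338). That call was lost without MM.1s, KMS11 or 8226/S (adjusted p = 0.131, 0.13 and 0.196). The 1 call with ATO was BIRC5, which encodes survivin and is highest in dividing cells, which fell by 1.14 ± 0.23 after 48 h (adjusted p = 0.00207). Among 5 other relatives, BCL2L13 rose after 48 h of ATO (0.66 ± 0.13, adjusted p = 0.00155) and after 6 h of DAR (0.45 ± 0.13, adjusted p = 0.0195). The DAR call of BCL2L13 was lost without U266, MM.1s or KMS11 (adjusted p = 0.0626, 0.108 and 0.08) and with pooled controls (adjusted p = 0.0777). BNIP3L, a mitophagy receptor, fell by 0.64 ± 0.17 after 6 h of ATO (adjusted p = 0.0223), a call lost without U266, MM.1s or KMS11 (adjusted p = 0.0885, 0.157 and 0.157), and its value was -0.08 with pooled controls (adjusted p = 0.845). It was also called for DAR minus ATO at 6 h (0.97), a call lost without MM.1s or KMS11 (adjusted p = 0.325 and 0.148).

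Of 8 genes whose proteins hold or turn over family members, 2 fell after 6 h of ATO, where 6.41% of all genes were called, and none passed in the other treatments. DYNLL1, a dynein light chain that binds BIM, fell by 0.43 ± 0.11 (adjusted p = 0.026) and VDAC2, which anchors BAK, by 0.29 ± 0.08 (adjusted p = 0.0339), each with 0 of 4 lines higher. The call of DYNLL1 was lost without U266, MM.1s or KMS11 (adjusted p = 0.17, 0.135 and 0.121), and that of VDAC2 without MM.1s, KMS11 or 8226/S (adjusted p = 0.275, 0.171 and 0.148). With pooled controls DYNLL1 was at -0.65 and VDAC2 at -0.50. DYNLL1 was called higher at 24 h than at 6 h of DAR (0.58). That call was lost without MM.1s and with pooled controls (adjusted p = 0.0525 and 0.0568).

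Median centring ended the calls of BCL2, BCL2L13, CASP9, FADD, CASP8 and TP53INP1 after 6 h of DAR (adjusted p = 0.0593 to 0.149), of CASP8 after 48 h of ATO (0.104) and of VDAC2 after 6 h of ATO (0.145). Without the variance trend the calls of BNIP3L, MYC, GADD45A, DYNLL1 and VDAC2 after 6 h of ATO were lost, as were those of BCL2L1 after 24 h and CASP8 after 48 h of ATO and of TP53INP1 after 6 h of DAR (adjusted p = 0.0501 to 0.0998). Quantile normalization ended those of CASP9 and TP53INP1 after 6 h of DAR (adjusted p = 0.0738 and 0.0805).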

How the data were processed

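RNA from 28 samples was hybridised to Affymetrix HG-U133 Plus 2.0 arrays. The deposited intensity values are the authors' linear, globally scaled signals, made with GCOS per the submitters' processing notes (version not given), and the mean without 2% at each tail was 500.05 to 500.08 on every array. Depth is set by the number of arrays. Here log2(intensity + 29) was computed and each gene was read from its brightest single-symbol probe set, of 41097 such probe sets (1801 carried several symbols and 11777 none). A gene was tested if it was above the array's 50th percentile on at least 4 arrays.

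The values were fitted with limma 3.58.1 (R 4.3.3), with 1 baseline for each line and array set and 5 treatments, leaving 15 residual degrees of freedom. Benjamini-Hochberg adjustment ran over 15437 genes, or over 36740 probe sets in a second fit, with a threshold of 0.05. Each coefficient is the mean of 4 line changes. The genes described were all 9 members, the pathway genes called in at least 1 comparison, a few uncalled pathway genes named beside them after their values were seen, and the 3 genes most like each called member. Members and lists were chosen with earlier results of these data known. The pairing is by cell line, which the labels give: deviations of same-line arrays correlated at 0.68 on average and at 0.26 at the lowest. The fit was tested on simulated data. Alternatives varied controls, line block, normalization, offset, filter, probe sets, variance trend and the lines included.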

Additional observations from a re-analysis of the deposited data

Results flagged for a closer look

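Of 63 groups of 4 lines examined for 1 line far from the others, 3 had one, and chance gives about 1 in 20. BAX changed by 1.34 on the log2 scale in MM.1s after 6 h of DAR, while the nearest other line was at 0.14. BCL2L11 had a log2 level of 10.26 in KMS11 in control 2, while the nearest other line was at 11.18. HRK had a log2 level of 6.73 in MM.1s in control 2, while the nearest other line was at 7.40.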

How the results depend on the processing

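Of 219 alternatives run on the 18 called values of the 9 genes and their probe sets, 145 kept the call and none turned the sign. The probe-set and pathway-list alternatives were chosen after seeing the data. PMAIP1 after 6 h of DAR kept its call in 13 of 14 alternatives (1.45 to 1.86) and BMF after 48 h of ATO in 9 of 13 (0.80 to 1.51). Without the pairing by line (no replicate block) 0 members were called after 48 h of ATO and 0 after 6 h of DAR. Pooled controls put the 2 controls of each line together without a term for array set, so the difference between the sets enters the changes. In that setting 1 member was called after 24 h of ATO, 3 after 6 h of DAR, 6 for DAR minus ATO at 6 h and 3 at 24 h. Pooling also turned BAK1 to -0.94 and -1.02 for DAR minus ATO at 6 h and 24 h, BAD to 0.79 at 24 h, CASP10 after 6 h of ATO to 0.050 (adjusted p = 0.932) and BNIP3L for DAR minus ATO at 6 h to -0.15 (adjusted p = 0.711). An offset of 64 gave 1 call after 24 h of ATO. That offset, median centring and a filter on all 28 arrays each gave 1 call for DAR 24 h minus 6 h. After 48 h of ATO 0 were called with the filter on all 28 arrays, which removes BMF, and 0 without the variance trend. Without the control number 1 member differed between untreated lines. Leaving out 1 line gave 0 to 2 calls after 24 h of ATO, 0 to 2 after 48 h and 1 to 2 after 6 h of DAR. The causes were not tested. Of 531 alternatives on 38 called pathway values, 406 kept the call. With 1 array per line and treatment, a change in a single line has no replicate check.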
